A study of Mus musculus with 12 samples.

Results

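Expression of 38 genes of glucose uptake, glycolysis and the hypoxia-linked control of glucose use was examined in the G1-phase transcriptomes of WT and P53-/- mouse embryonic stem cells (ESCs). The 38 genes were chosen by symbol. All 38 were found among the 24881 gene symbols of the RNA-seq table, and all 38 passed the expression filter of a mean of at least 0.5 FPKM (fragments scaled by transcript length and by the size of the library). The table held 8 libraries in 4 groups of 2, namely WT and P53-/- ESCs grown in 2i and WT and P53-/- ESCs grown in serum. The cells were R1 mouse ESCs carrying the FUCCI reporter, a pair of fluorescent proteins that marks the phases of the cell cycle, and cells of every group were sorted for G1 phase before total RNA was depleted of ribosomal RNA and sequenced. Serum ESCs were grown in serum with the cytokine LIF. 2i ESCs were grown in serum-free N2B27 medium with LIF, the MEK inhibitor PD0325901 and the GSK3 inhibitor CHIR99021. P53-/- ESCs came from single cells edited with CRISPR-Cas9 in an exon common to the Trp53 isoforms. RNA-seq used P53-/- clones 1 and 2, and the table does not say which library came from which clone, so library numbers below are only names. Whether the WT libraries came from separate cultures is not given, and p-values then measure only the spread between these libraries.

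Glycolysis turns glucose into pyruvate in a chain of steps, most of which can be run by any of several isozymes encoded by separate genes. Pyruvate is then reduced to lactate and exported or enters the mitochondria through pyruvate dehydrogenase, which the PDK kinases switch off. When oxygen is low, the transcription factor HIF-1 (Hif1a is its regulated subunit) raises many of these genes, and at normal oxygen EGLN prolyl hydroxylases mark HIF-1 alpha for degradation. Mouse ESCs are known for a high glycolytic rate, and P53 is known as a regulator of glucose metabolism in other cells.

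The libraries were estimated to hold 5200000 to 13300000 fragments, and 15181 to 15792 genes had a value above 0. Small RNAs made up 92.5% to 93.9% of all FPKM in the 4 libraries of 2i ESCs and 97.2% to 99.1% in the 4 of serum ESCs. A fit without them called 3 of the 38 genes on P53 loss in 2i, and 21 (WT) and 23 (P53-/-) with culture, beside 3, 21 and 22 with them. Of all genes it called 11.4%, 56.7% and 59.2%. The FPKM of the other genes were not rescaled in this fit, so their log2 differences could not change. It therefore cannot show what the small RNAs did to the scaling. Trp53 was 26.8 and 33.7 FPKM in the WT and 7.25 and 1.88 in the P53-/- libraries of 2i ESCs, with 77.6 and 75.1 in the WT and 16.8 and 3.68 in the P53-/- libraries of serum ESCs, lower in each P53-/- library than in either WT library of the same culture, although 1 P53-/- library in each culture kept several times the level of the other. The difference was called in 2i (log2 fold change -2.98, SE 0.74, adjusted p = 0.0547) and not in serum (log2 fold change -3.26, SE 0.74, adjusted p = 0.15). The 8 markers of pluripotent ESCs summed to 3536 to 4490 FPKM in a library. Each of 5 lists of markers of other cell types, 30 genes in all, summed to at most 41.1 FPKM. The 6 fibroblast markers summed to 0.76 to 1.34 FPKM in 2i and 7.73 to 10.5 FPKM in serum. Nearly all of the serum sum was Thy1, a surface protein also found on cells other than fibroblasts, which measured 0.343 to 0.972 FPKM in 2i and 7.55 to 10.5 FPKM in serum. Col1a1 was at most 0.501 FPKM and was highest in WT 2i ESCs, and Lum was at 0 in all serum libraries, with Postn at 0 in all libraries and Col1a2 and Dcn at 0 in all but P53-/- serum ESCs. The 6 trophoblast markers summed to 9.73 to 14.7 FPKM in 2i and 6.76 to 8.82 FPKM in serum. On P53 loss in 2i the 6 mesoderm markers summed to 6.01 to 6.42 FPKM in WT and 2.74 to 3.75 FPKM in P53-/- ESCs, and the 6 neural markers to 31.5 to 34.2 and 22.5 to 27.7 FPKM. In serum the mesoderm markers were again lower, at 4.03 to 4.13 FPKM in WT and 2.77 to 3.29 FPKM in P53-/- ESCs. The neural sum was higher there, at 26.5 to 27.5 FPKM in WT and 36.01 to 41.1 FPKM in P53-/- ESCs. Most of the neural sum was Tubb3, at 28.8 and 26.7 FPKM (WT) and 20.7 and 15.8 FPKM (P53-/-) in 2i. In serum Tubb3 was at 18.2 and 19.2 FPKM (WT) and 29.6 and 32.2 FPKM (P53-/-). Sox1 was also lower in P53-/- 2i ESCs, whereas Nes and Pax6 were higher, and Pax6 was lower in P53-/- serum ESCs. The 6 primitive endoderm markers summed to 2.49 to 4.36 FPKM in WT and 1.47 to 2.32 FPKM in P53-/- 2i ESCs, and to 2.62 to 2.82 and 1.28 to 1.35 FPKM in serum, lower in P53-/- ESCs without overlap in both cultures. Of the 8 pluripotency markers Klf4 was called lower in P53-/- 2i ESCs (-0.96 on the log2 scale, adjusted p = 0.00782), and of the other markers tested Tubb3 was lower (-0.61, adjusted p = 0.0540) and Krt7 higher (2.14, adjusted p = 0.0972). With culture, 3 of the 8 pluripotency markers were called in WT (1 higher and 2 lower in 2i), beside 55.7% of all genes. In P53-/- ESCs 6 were called (1 higher and 5 lower), beside 58.2%. Each of the 5 other lists also held markers called with culture in both genotypes. The part of these markers in the differences of culture and genotype was not tested.

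The first comparison was between cultures, 2i against serum, in each genotype. Expression of the glycolytic genes did not move as 1 block. In both genotypes 8 genes were higher in 2i, namely Slc2a3, Gpi1, Pfkm, Aldoa, Aldoc, Tpi1, Pfkfb2 and Pfkfb4, and 8 were lower in 2i, namely Slc2a1, Slc16a3, Hk2, Ldha, Pdk1, Pfkfb3, Egln3 and Bnip3l. Of all genes tested, 22.1% were called higher and 24.1% lower in both genotypes, so that 8 and 8 of 38 lay near the background. The largest rise was in Aldoc, an aldolase best known from brain, with log2 fold changes of 2.85 in WT and 3.19 in P53-/- ESCs. The largest falls were in Egln3 (-2.94 and -1.92) and in Pdk1 (-2.09 and -2.17). Egln3 was measured at few FPKM, and with a pseudocount of 1 its WT value was -1.98, beside -2.04 for Pdk1. Genes were called changed where limma's adjusted p was below 0.1 and the change exceeded 1.5-fold. By this rule 21 of the 38 genes changed in WT ESCs, 9 higher and 12 lower in 2i, which is 55.3% of them where 55.7% of all 12572 genes tested were called (27.2% higher and 28.6% lower). In P53-/- ESCs 22 changed, 14 higher and 8 lower, which is 57.9% where 58.2% of all genes were called (28.0% higher and 30.1% lower). The share of glucose genes that changed with culture was therefore near that of all genes. The median log2 fold change of the 38 genes was 0.08 in WT and 0.16 in P53-/- ESCs, beside -0.02 and -0.03 over all genes tested. Of the 38 genes, 12 were called in neither genotype.

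**Figure D1:**
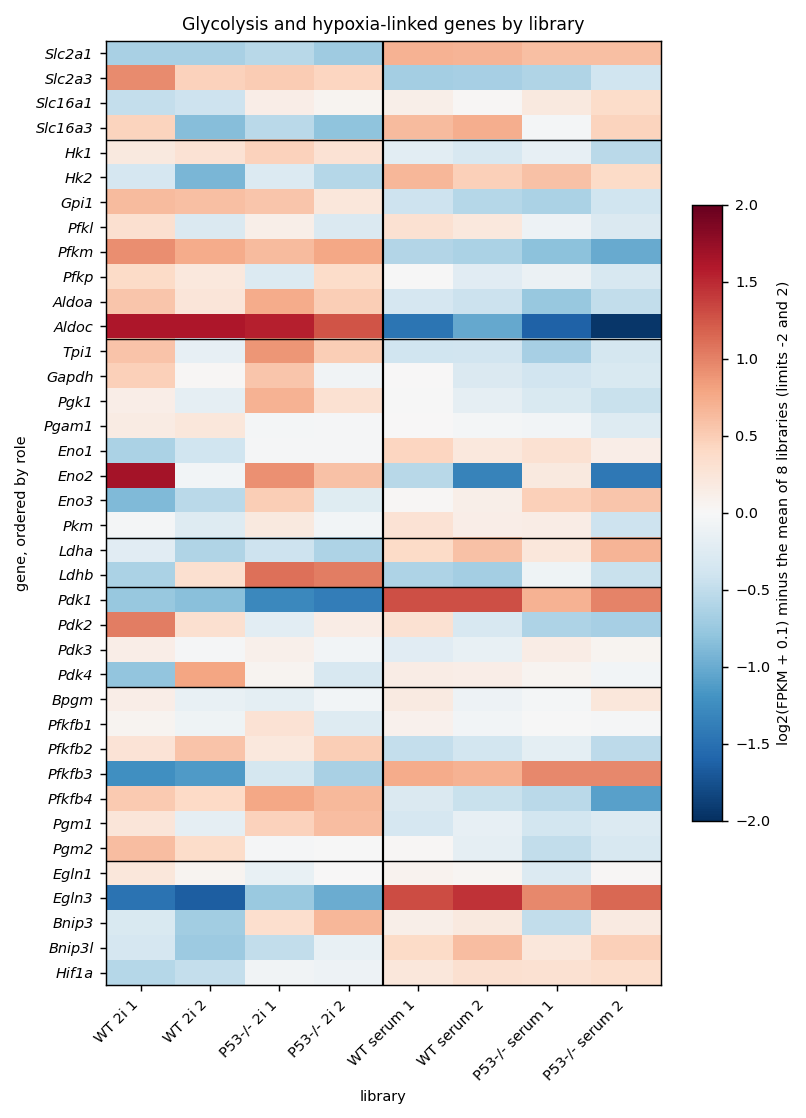
Heat map of the 38 genes (vertical axis, ordered by role, with lines between roles) in the 8 libraries (horizontal axis, 2i left and serum right of the black line), coloured by log2(FPKM + 0.1) minus the gene's mean over the 8 libraries. Slc2a3, Pfkm and Aldoc are red in 2i and blue in serum, Slc2a1, Hk2, Pdk1, Pfkfb3 and Egln3 are the reverse, and the values for Aldoc run from 1.16 to 14.7 FPKM.

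The stretches of 250 bases before the first transcription start listed by RefSeq (GRCm38.p6) are shown for 10 genes, since the genes that moved together with culture can be compared for shared letters there. The letters searched were ACGTG on either strand (CACGT in the printed strand where it lies on the other), the core of the element that HIF binds. The E-box CACGTG contains the same letters on both strands. Each sequence runs 5′ to 3′ toward the start, and capitals mark ACGTG or CACGT. Slc2a1, Pfkfb3, Pdk1 and Egln3 had the largest falls in 2i in both genotypes (by the smaller of the 2 log2 values), Aldoc, Pfkm and Gpi1 the largest rises among genes with a RefSeq promoter, and Ldhb, Bnip3 and Eno3 were the genes called on P53 loss described further on.
Slc2a1 (chr4:119108495-119108744, plus strand): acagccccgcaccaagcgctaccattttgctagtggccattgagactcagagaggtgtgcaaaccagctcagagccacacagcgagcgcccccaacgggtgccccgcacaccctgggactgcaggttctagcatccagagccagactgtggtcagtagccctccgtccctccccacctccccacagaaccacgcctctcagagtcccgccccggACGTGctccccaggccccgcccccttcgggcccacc
Pfkfb3 (chr2:11553930-11554179, minus strand): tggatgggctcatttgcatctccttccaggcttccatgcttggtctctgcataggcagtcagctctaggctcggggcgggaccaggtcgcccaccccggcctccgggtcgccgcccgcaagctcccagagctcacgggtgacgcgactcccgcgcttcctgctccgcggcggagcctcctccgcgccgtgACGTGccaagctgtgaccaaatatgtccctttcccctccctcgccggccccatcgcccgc
Pdk1 (chr2:71872974-71873223, plus strand): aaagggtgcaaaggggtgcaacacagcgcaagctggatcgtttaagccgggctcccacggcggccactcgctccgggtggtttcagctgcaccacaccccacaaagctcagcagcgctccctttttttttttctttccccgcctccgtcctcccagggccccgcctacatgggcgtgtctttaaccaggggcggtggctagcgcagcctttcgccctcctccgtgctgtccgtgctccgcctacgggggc
Egln3 (chr12:54203875-54204124, minus strand): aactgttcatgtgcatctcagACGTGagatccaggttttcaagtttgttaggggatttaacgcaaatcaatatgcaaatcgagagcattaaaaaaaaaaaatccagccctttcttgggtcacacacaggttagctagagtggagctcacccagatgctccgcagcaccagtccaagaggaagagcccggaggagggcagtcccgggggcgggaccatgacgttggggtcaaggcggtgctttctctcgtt
Aldoc (chr11:78322823-78323072, plus strand): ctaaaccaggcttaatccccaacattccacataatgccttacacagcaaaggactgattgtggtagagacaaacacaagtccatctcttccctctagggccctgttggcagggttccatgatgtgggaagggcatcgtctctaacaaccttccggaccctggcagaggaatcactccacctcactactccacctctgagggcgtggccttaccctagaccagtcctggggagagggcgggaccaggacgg
Pfkm (chr15:98092339-98092588, plus strand): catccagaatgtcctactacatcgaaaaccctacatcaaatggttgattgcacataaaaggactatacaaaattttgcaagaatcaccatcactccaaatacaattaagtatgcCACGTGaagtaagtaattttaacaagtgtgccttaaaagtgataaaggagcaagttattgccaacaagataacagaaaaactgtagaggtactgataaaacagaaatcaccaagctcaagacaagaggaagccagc
Gpi1 (chr7:34230337-34230586, minus strand): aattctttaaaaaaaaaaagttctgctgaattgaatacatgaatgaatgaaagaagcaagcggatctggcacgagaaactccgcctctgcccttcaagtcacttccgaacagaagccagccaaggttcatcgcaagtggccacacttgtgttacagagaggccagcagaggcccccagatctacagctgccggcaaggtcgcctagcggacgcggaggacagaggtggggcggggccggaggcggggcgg
Ldhb (chr6:142507958-142508207, minus strand): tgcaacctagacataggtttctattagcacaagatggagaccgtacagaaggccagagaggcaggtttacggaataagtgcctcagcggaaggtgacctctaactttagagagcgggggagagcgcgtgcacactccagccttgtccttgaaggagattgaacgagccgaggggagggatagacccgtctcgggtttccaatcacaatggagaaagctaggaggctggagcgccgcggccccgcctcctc
Bnip3 (chr7:138909507-138909756, minus strand): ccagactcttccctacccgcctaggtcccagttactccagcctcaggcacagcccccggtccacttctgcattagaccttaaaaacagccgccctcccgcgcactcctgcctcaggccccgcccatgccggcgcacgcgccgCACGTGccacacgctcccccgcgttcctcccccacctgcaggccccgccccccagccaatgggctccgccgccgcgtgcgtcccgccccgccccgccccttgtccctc
Eno3 (chr11:70656926-70657175, plus strand): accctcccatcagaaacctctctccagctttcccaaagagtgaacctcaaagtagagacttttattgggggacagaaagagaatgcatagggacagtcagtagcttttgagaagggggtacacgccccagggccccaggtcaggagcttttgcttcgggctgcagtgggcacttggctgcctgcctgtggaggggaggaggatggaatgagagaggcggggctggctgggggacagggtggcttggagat

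The letters began at position -36 for Slc2a1, -60 for Pfkfb3 and -229 for Egln3, where -1 is the base before the start. The matches of Bnip3 and Pfkm each lay within a CACGTG E-box. No match was found in the windows of Pdk1, Aldoc, Gpi1, Ldhb or Eno3. For Egln3 and Eno3, the bases after the start were not found near the beginning of a GENCODE M21 transcript of the gene. The same held for some genes not shown, Ldha among them, so the place of these windows is less certain. RefSeq promoters were matched for 36 of the 38 genes, all but Slc2a3 and Bnip3l, and 18 of the 36 (50%) held the letters, beside 22.5% of 9765 genes tested and 16.6% of all 32851 promoters in the table. Of the genes lower in 2i in both genotypes 6 of 7 held them, and of those higher in 2i in both genotypes 2 of 7, Pfkm and Pfkfb2. The share among all genes called lower or higher in 2i was not counted, so this split has no background. The 38 genes were listed in part as hypoxia-linked, so their 50% was not independent of that choice. Each E-box CACGTG counts as 2 matches, at neighbouring bases. By this count the window of Ldha held the most matches, 5, at -145, -144, -48, -47 and -34. A match is a description of letters and not a site.

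Glucose enters ESCs through the transporters GLUT1 and GLUT3, encoded by Slc2a1 and Slc2a3, which moved in opposite directions with culture. Slc2a1 measured 84.9 and 84.8 FPKM in 2i against 215 and 214 in serum for WT ESCs, and 90.8 and 81.3 in 2i against 202 and 203 in serum for P53-/- ESCs, and every 2i library lay below every serum library. In RNA from many cells, as here, a lower level per cell and fewer expressing cells cannot be told apart. On the log2 scale, 2i minus serum was -1.34 for WT (SE 0.11, adjusted p = 7.1e-05) and -1.24 for P53-/- ESCs (SE 0.11, adjusted p = 7.8e-05). Slc2a3, the high-affinity transporter of neurons and early embryos, measured 675 and 482 FPKM (WT) and 495 and 473 FPKM (P53-/-) in 2i, against 218 and 220.1 (WT) and 230.2 and 264 (P53-/-) in serum. Here the 4 libraries of 2i ESCs lay above the 4 of serum ESCs. Relative to serum, 2i ESCs differed by 1.38 on the log2 scale in WT (SE 0.18, adjusted p = 4.3e-04) and by 0.97 in P53-/- ESCs (SE 0.18, adjusted p = 0.00211). Of the lactate and pyruvate carriers, Slc16a3 (MCT4, a lactate exporter) measured 25.2 and 10.2 FPKM in the WT and 12.6 and 10.5 in the P53-/- libraries of 2i ESCs, with 28.6 and 30.7 in the WT and 17.96 and 25.1 in the P53-/- libraries of serum ESCs, so that WT 2i library 1 lay among the serum libraries. WT ESCs differed by a log2 of -0.88 between 2i and serum (SE 0.37, adjusted p = 0.0749), and P53-/- ESCs by -0.87 (SE 0.37, adjusted p = 0.0740). Leaving out a library ended these calls: in WT ESCs the difference was -0.23, adjusted p = 0.419 without WT 2i library 2, -0.93, adjusted p = 0.197 without WT serum library 1 and -0.83, adjusted p = 0.249 without WT serum library 2, and in P53-/- ESCs it missed the threshold without any 1 of the 4 libraries, at -1.11 to -0.63. Without WT 2i library 1 the WT difference was -1.53, adjusted p = 0.00278. The calls in both genotypes were also lost with all genes above 0 tested, after quantile normalization and without limma's trend (adjusted p from 0.113 to 0.129), and the WT call in a fit of the WT libraries alone (adjusted p = 0.154). Slc16a1 (MCT1), the carrier with the higher FPKM of the pair in every library, ranged from 43.0 to 77.2 FPKM and was called with culture in neither genotype.

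In the upper pathway, from hexokinase to aldolase, 5 of 8 genes changed with culture in WT ESCs (4 higher and 1 lower in 2i) and 6 of 8 in P53-/- ESCs (5 higher and 1 lower), beside 27.2% of all genes higher and 28.6% lower in WT and 28.0% higher and 30.1% lower in P53-/- ESCs. These shares of all genes apply to each count of genes called with culture that follows. Hk2, the hexokinase tied to growth and hypoxia, was the gene that fell. It measured 34.5 and 23.1 FPKM in 2i against 69.1 and 60.5 in serum for WT ESCs, and 36.3 and 29.3 in 2i against 65.4 and 57.1 in serum for P53-/- ESCs, with no overlap between cultures. Fold changes of 2i over serum on the log2 scale were -1.19 in WT (SE 0.21, adjusted p = 0.00173) and -0.90 in P53-/- ESCs (SE 0.21, adjusted p = 0.00601). Hk1, the hexokinase found in most tissues, went the other way and measured 18.2 and 19.4 FPKM (WT) and 21.8 and 19.5 FPKM (P53-/-) in 2i, against 13.6 and 12.7 (WT) and 14.1 and 10.8 (P53-/-) in serum. For 2i against serum, limma estimated a log2 difference of 0.51 in WT (SE 0.16, adjusted p = 0.0230) and 0.73 in P53-/- ESCs (SE 0.16, adjusted p = 0.00435), of which the former passed the adjusted p but stayed under 1.5-fold. Without P53-/- serum library 2 the value in P53-/- ESCs also fell under 1.5-fold (0.54, adjusted p = 0.0234). The difference between the genotypes did not pass (interaction 0.22, adjusted p = 0.705).

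Gpi1, phosphoglucose isomerase, measured 92.8 and 91.0 FPKM in the WT and 88.1 and 70.5 in the P53-/- libraries of 2i ESCs, with 45.1 and 40.2 in the WT and 38.8 and 45.6 in the P53-/- libraries of serum ESCs. All 2i libraries lay above all serum libraries. Limma gave a log2 fold change of 2i against serum of 1.11 in WT (SE 0.15, adjusted p = 5.0e-04) and of 0.90 in P53-/- ESCs (SE 0.15, adjusted p = 0.00121). Phosphofructokinase, the committed step of glycolysis, is built from liver-, muscle- and platelet-type subunits. The muscle-type gene Pfkm measured 34.3 and 29.96 FPKM in 2i against 11.9 and 11.5 in serum for WT ESCs, and 27.7 and 30.7 in 2i against 10.1 and 8.85 in serum for P53-/- ESCs, a clean separation by culture. On the log2 scale, 2i minus serum was 1.45 for WT (SE 0.13, adjusted p = 9.9e-05) and 1.62 for P53-/- ESCs (SE 0.13, adjusted p = 5.6e-05). The liver-type Pfkl (27.6 to 42.1 FPKM) and the platelet-type Pfkp (75.7 to 123 FPKM) were called in neither genotype.

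Both aldolases were higher in 2i. Aldoa, which holds almost all of the aldolase FPKM, measured 636 and 509 FPKM (WT) and 721 and 605 FPKM (P53-/-) in 2i, against 343 and 322 (WT) and 254.6 and 308 (P53-/-) in serum. Relative to serum, 2i ESCs differed by 0.77 on the log2 scale in WT (SE 0.18, adjusted p = 0.00630) and by 1.24 in P53-/- ESCs (SE 0.18, adjusted p = 6.0e-04). Aldoc measured 14.7 and 14.7 FPKM in the WT and 14.1 and 11.5 in the P53-/- libraries of 2i ESCs, with 1.66 and 2.28 in the WT and 1.47 and 1.16 in the P53-/- libraries of serum ESCs. No other of the 38 genes rose as far in either genotype. WT ESCs differed by a log2 of 2.85 between 2i and serum (SE 0.21, adjusted p = 5.1e-05), and P53-/- ESCs by 3.19 (SE 0.21, adjusted p = 2.9e-05). Aldoa is among the genes with named pseudogene copies in GENCODE M21, as are Gapdh, Pgk1, Pgam1, Ldha and Bnip3l, and how the authors' counting shared reads among such copies is not given in the sources used here.

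From triose phosphates to pyruvate 4 of 8 genes were called with culture in WT ESCs (2 higher and 2 lower in 2i) and 3 of 8 in P53-/- ESCs (all higher). Tpi1, triose phosphate isomerase, measured 329 and 198 FPKM in 2i against 167 and 169 in serum for WT ESCs, and 406 and 311 in 2i against 140.0 and 174 in serum for P53-/- ESCs. P53-/- 2i library 1 was the highest, and WT 2i library 2 was the 2i library closest to serum. Fold changes of 2i over serum on the log2 scale were 0.60 in WT (SE 0.25, adjusted p = 0.0686) and 1.19 in P53-/- ESCs (SE 0.25, adjusted p = 0.00409). The WT call was lost without WT 2i library 1 (0.24, adjusted p = 0.378), WT serum library 1 (0.59, adjusted p = 0.201) or WT serum library 2 (0.61, adjusted p = 0.192). Centring each chromosome at its own median also ended it (0.27, adjusted p = 0.216), as did a fit of the WT libraries alone (adjusted p = 0.112) and limma without the trend (adjusted p = 0.107). Tpi1 lies on chromosome 6 with 7 others of the 38 genes (Slc2a3, Hk2, Gapdh, Eno2, Ldhb, Pdk4 and Bpgm), and the median gene of chromosome 6 was higher in WT 2i than in WT serum by 0.33 on the log2 scale.

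Gapdh, the reference gene of the study's qRT-PCR, measured 353 and 258 FPKM (WT) and 375 and 242 FPKM (P53-/-) in 2i, against 257 and 208 (WT) and 194 and 206 (P53-/-) in serum, and the cultures overlapped. For 2i against serum, limma estimated a log2 difference of 0.39 in WT (SE 0.24, adjusted p = 0.197) and 0.59 in P53-/- ESCs (SE 0.24, adjusted p = 0.0628). The call in P53-/- ESCs was lost without P53-/- 2i library 1 (0.27, adjusted p = 0.361), P53-/- serum library 1 (0.55, adjusted p = 0.197) or P53-/- serum library 2 (0.63, adjusted p = 0.146), and under chromosome centring (0.39, adjusted p = 0.107). Pgk1, phosphoglycerate kinase, the first ATP-yielding step, measured 81.9 and 65.5 FPKM in the WT and 121 and 92.4 in the P53-/- libraries of 2i ESCs, with 73.8 and 65.4 in the WT and 60.2 and 54.5 in the P53-/- libraries of serum ESCs. WT ESCs of the 2 cultures overlapped, while P53-/- 2i ESCs lay above P53-/- serum ESCs. Limma gave a log2 fold change of 2i against serum of 0.08 in WT (SE 0.17, adjusted p = 0.725) and of 0.88 in P53-/- ESCs (SE 0.17, adjusted p = 0.00287). Pgam1 (31.9 to 44.7 FPKM) and the pyruvate kinase gene Pkm (547 to 889.9 FPKM), which had the highest mean FPKM of the 38 genes, were called in neither genotype. The table gives 1 value per gene, so the M1 and M2 forms of pyruvate kinase were not told apart.

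The 3 enolase genes split. Eno1, the enolase of most tissues, measured 56.0 and 66.2 FPKM in 2i against 117 and 101 in serum for WT ESCs, and 85.0 and 85.0 in 2i against 107 and 94.7 in serum for P53-/- ESCs, lower in every 2i than in every serum library. On the log2 scale, 2i minus serum was -0.84 for WT (SE 0.14, adjusted p = 0.00141) and -0.25 for P53-/- ESCs (SE 0.14, adjusted p = 0.154). Eno3, the muscle enolase, measured 4.37 and 5.58 FPKM (WT) and 11.5 and 6.86 FPKM (P53-/-) in 2i, against 8.31 and 8.83 (WT) and 11.4 and 12.1 (P53-/-) in serum, and all 2i libraries but P53-/- 2i library 1 lay below all serum libraries. Relative to serum, 2i ESCs differed by -0.78 on the log2 scale in WT (SE 0.24, adjusted p = 0.0243) and by -0.40 in P53-/- ESCs (SE 0.24, adjusted p = 0.183). The WT call of Eno3 was lost without WT 2i library 1 (-0.61, adjusted p = 0.128) or WT serum library 2 (-0.74, adjusted p = 0.130). Eno2, the neuronal enolase, was low and measured 4.98 and 1.44 FPKM in the WT and 2.91 and 2.30 in the P53-/- libraries of 2i ESCs, with 0.980 and 0.529 in the WT and 1.73 and 0.494 in the P53-/- libraries of serum ESCs. Its libraries differed within groups by up to several times. WT ESCs differed by a log2 of 1.76 between 2i and serum (SE 0.68, adjusted p = 0.0540), and P53-/- ESCs by 1.36 (SE 0.68, adjusted p = 0.114). The WT value was 0.90, adjusted p = 0.313 without WT 2i library 1, 2.15, adjusted p = 0.1004 without WT serum library 1, 1.37, adjusted p = 0.263 without WT serum library 2 and 2.62, adjusted p = 0.0182 without WT 2i library 2. Eno1, Eno2 and Eno3 were called in WT and not in P53-/- ESCs, and the interaction passed for none of them (adjusted p = 0.279, 0.902 and 0.675).

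At the branch between lactate and mitochondria, Ldha, the dehydrogenase subunit that dominates in muscle and many tumours, measured 272 and 209 FPKM in 2i against 413 and 478 in serum for WT ESCs, and 239 and 207 in 2i against 371 and 507 in serum for P53-/- ESCs. Serum ESCs were higher without overlap. Fold changes of 2i over serum on the log2 scale were -0.90 in WT (SE 0.20, adjusted p = 0.00617) and -0.96 in P53-/- ESCs (SE 0.20, adjusted p = 0.00416). Ldhb, the heart-type subunit, measured 65.9 and 128 FPKM (WT) and 221 and 208 FPKM (P53-/-) in 2i, against 67.0 and 64.1 (WT) and 96.4 and 75.4 (P53-/-) in serum. WT 2i library 1 lay among the serum libraries and WT 2i library 2 above them, whereas both P53-/- 2i libraries were above all others. For 2i against serum, limma estimated a log2 difference of 0.48 in WT (SE 0.28, adjusted p = 0.167) and 1.33 in P53-/- ESCs (SE 0.28, adjusted p = 0.00401). Pdk1, a kinase that inactivates pyruvate dehydrogenase and a classical HIF target, measured 20.4 and 19.3 FPKM in the WT and 14.0 and 13.2 in the P53-/- libraries of 2i ESCs, with 85.0 and 84.6 in the WT and 55.8 and 68.5 in the P53-/- libraries of serum ESCs and was lower in every 2i library. Limma gave a log2 fold change of 2i against serum of -2.09 in WT (SE 0.13, adjusted p = 2.9e-05) and of -2.17 in P53-/- ESCs (SE 0.13, adjusted p = 2.1e-05). The other kinases Pdk2 (0.383 to 1.46 FPKM), Pdk3 (18.8 to 24.4) and Pdk4 (0.931 to 2.96) were called in neither genotype.

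Among enzymes of side metabolites, the bifunctional PFKFB enzymes make and remove the allosteric activator of phosphofructokinase. Pfkfb3, whose kinase activity far exceeds its phosphatase activity, measured 0.531 and 0.578 FPKM in 2i against 2.38 and 2.30 in serum for WT ESCs, and 1.07 and 0.839 in 2i against 2.78 and 2.77 in serum for P53-/- ESCs. The serum libraries were all higher. On the log2 scale, 2i minus serum was -1.90 for WT (SE 0.25, adjusted p = 5.2e-04) and -1.46 for P53-/- ESCs (SE 0.25, adjusted p = 0.00168). Pfkfb2, the heart-type member, measured 6.23 and 7.65 FPKM (WT) and 5.96 and 7.27 FPKM (P53-/-) in 2i, against 3.66 and 3.96 (WT) and 4.44 and 3.53 (P53-/-) in serum, which is higher in 2i without overlap. Relative to serum, 2i ESCs differed by 0.84 on the log2 scale in WT (SE 0.20, adjusted p = 0.00697) and by 0.72 in P53-/- ESCs (SE 0.20, adjusted p = 0.0134). In P53-/- ESCs it fell under 1.5-fold without P53-/- 2i library 2 (0.58, adjusted p = 0.0844) or P53-/- serum library 2 (0.56, adjusted p = 0.0800). Pfkfb4, a hypoxia-inducible member, measured 1.73 and 1.58 FPKM in the WT and 2.07 and 1.90 in the P53-/- libraries of 2i ESCs, with 0.944 and 0.830 in the WT and 0.774 and 0.496 in the P53-/- libraries of serum ESCs. It too was higher in all 2i libraries. WT ESCs differed by a log2 of 0.83 between 2i and serum (SE 0.30, adjusted p = 0.0437), and P53-/- ESCs by 1.53 (SE 0.30, adjusted p = 0.00303). The WT call was lost without WT 2i library 1 (0.77, adjusted p = 0.121) or WT serum library 2 (0.75, adjusted p = 0.132), after quantile normalization (0.55, adjusted p = 0.15) and with a pseudocount of 1 (0.49, adjusted p = 0.0294, under 1.5-fold). Pgm1, a phosphoglucomutase that links glycolysis to glycogen, measured 19.8 and 14.7 FPKM in 2i against 13.2 and 14.9 in serum for WT ESCs, and 23.0 and 25.7 in 2i against 13.0 and 13.9 in serum for P53-/- ESCs. Fold changes of 2i over serum on the log2 scale were 0.28 in WT (SE 0.17, adjusted p = 0.176) and 0.85 in P53-/- ESCs (SE 0.17, adjusted p = 0.00295). Symbols Pgm1 and Pgm2 have been exchanged between mouse annotations and are used as the table gives them. Pgm2 (7.36 to 16.1 FPKM), Pfkfb1 (2.52 to 3.70) and Bpgm (12.6 to 17.0), which makes the red cell effector bisphosphoglycerate, were called in neither genotype.

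In the HIF axis 4 of 5 genes were lower in 2i in WT ESCs, and in P53-/- ESCs 2 were lower and 1 was higher, beside 28.6% (WT) and 30.1% (P53-/-) of all genes lower and 28.0% (P53-/-) higher. Hif1a measured 32.9 and 35.2 FPKM (WT) and 46.5 and 45.7 FPKM (P53-/-) in 2i, against 57.2 and 61.0 (WT) and 60.3 and 62.7 (P53-/-) in serum, lower in all 2i libraries. For 2i against serum, limma estimated a log2 difference of -0.79 in WT (SE 0.11, adjusted p = 5.3e-04) and -0.41 in P53-/- ESCs (SE 0.11, adjusted p = 0.0108), of which the latter was under 1.5-fold. With each chromosome centred at its median the WT difference was also under 1.5-fold (-0.32, adjusted p = 0.0293), Hif1a lying on chromosome 12, where the median log2 difference of 2i against serum in WT was -0.38 over 456 genes. Egln3, a prolyl hydroxylase that is itself induced by HIF, measured 0.656 and 0.573 FPKM in the WT and 1.16 and 0.964 in the P53-/- libraries of 2i ESCs, with 5.14 and 5.62 in the WT and 3.998 and 4.59 in the P53-/- libraries of serum ESCs. The 2i libraries were all under the serum libraries by several times. Limma gave a log2 fold change of 2i against serum of -2.94 in WT (SE 0.22, adjusted p = 5.3e-05) and of -1.92 in P53-/- ESCs (SE 0.22, adjusted p = 2.3e-04). Egln1 (6.96 to 9.88 FPKM), the main oxygen-sensing hydroxylase, was called in neither genotype.

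The mitophagy receptors Bnip3 and Bnip3l, which tag mitochondria for removal, completed the axis. Bnip3l measured 18.7 and 14.3 FPKM in 2i against 31.0 and 36.5 in serum for WT ESCs, and 16.9 and 21.4 in 2i against 27.6 and 33.2 in serum for P53-/- ESCs. On the log2 scale, 2i minus serum was -1.04 for WT (SE 0.19, adjusted p = 0.00226) and -0.67 for P53-/- ESCs (SE 0.19, adjusted p = 0.0160). In P53-/- ESCs the call was lost without P53-/- 2i library 1 (-0.50, adjusted p = 0.104), was under 1.5-fold without P53-/- serum library 2 (-0.54, adjusted p = 0.0985) and fell under 1.5-fold with chromosome centring (-0.38, adjusted p = 0.0401) or quantile normalization (-0.53, adjusted p = 0.0418). Bnip3 measured 5.24 and 3.95 FPKM (WT) and 8.18 and 10.3 FPKM (P53-/-) in 2i, against 7.03 and 7.45 (WT) and 4.55 and 7.32 (P53-/-) in serum, and was the 1 gene of the 38 called in opposite directions in the 2 genotypes, beside 23 of all 12572 genes (0.183%). Relative to serum, 2i ESCs differed by -0.66 on the log2 scale in WT (SE 0.25, adjusted p = 0.0543) and by 0.66 in P53-/- ESCs (SE 0.25, adjusted p = 0.0524). The interaction of 1.31 on the log2 scale did not pass (SE 0.36, adjusted p = 0.210). The WT call was lost without WT 2i library 2 (-0.46, adjusted p = 0.237), WT serum library 1 (-0.70, adjusted p = 0.156) or WT serum library 2 (-0.62, adjusted p = 0.209), and the P53-/- call without P53-/- 2i library 2 (0.49, adjusted p = 0.236) or P53-/- serum library 1 (0.32, adjusted p = 0.301). Both calls fell under 1.5-fold with a pseudocount of 1 (-0.57, adjusted p = 0.0576 in WT and 0.58, adjusted p = 0.0515 in P53-/- ESCs), and a fit of the P53-/- libraries alone did not call Bnip3 (0.66, adjusted p = 0.115).

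**Figure D2:**
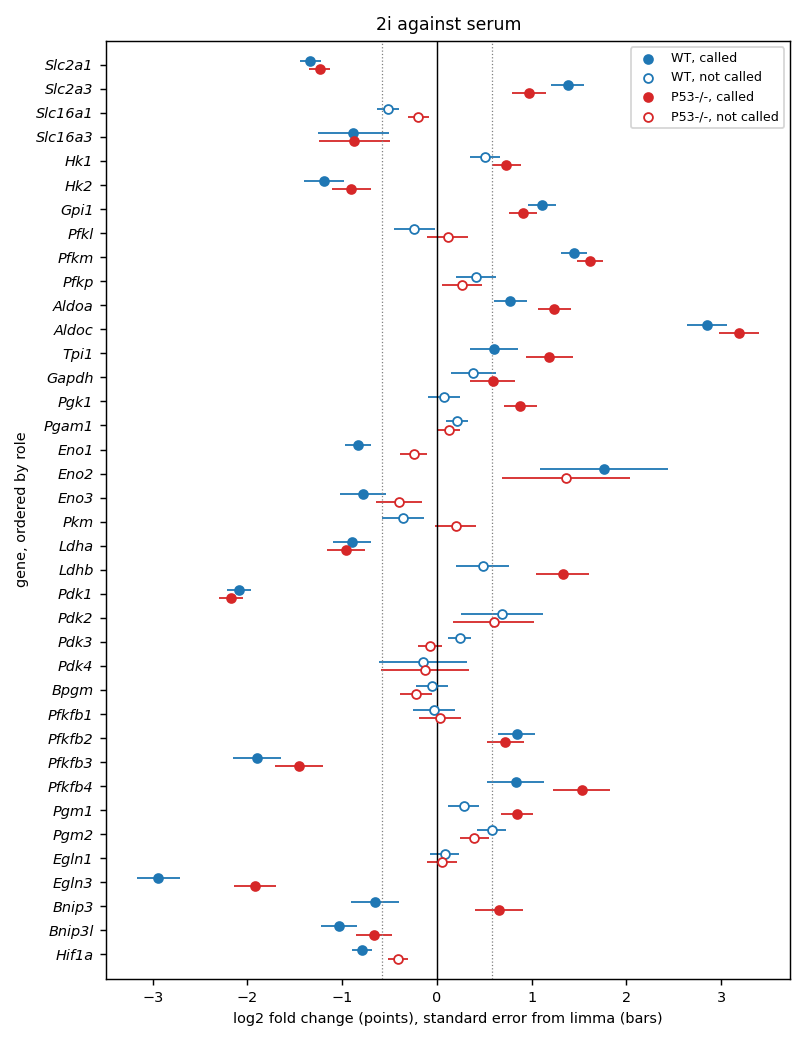
Log2 fold change of 2i against serum (horizontal axis) for each of the 38 genes (vertical axis, ordered by role) in WT (blue) and P53-/- (red) ESCs. Points are limma estimates from 2 libraries against 2, bars are standard errors, filled points were called, and dotted lines mark 1.5-fold. Aldoc lies farthest right at 2.85 and 3.19, Egln3 and Pdk1 lie farthest left, and Bnip3 falls on opposite sides of 0 at -0.66 and 0.66.

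Since FPKM is scaled by length, the isozymes of a family can be set side by side within a library, and each gene's share of its family's FPKM was compared between the 4 libraries of 2i ESCs and the 4 of serum ESCs, both genotypes pooled, by a two-sided exact permutation test. A share passed at an adjusted p under 0.05. Of 19 shares tested (1 per family of 2 genes), 11 passed. Each had an exact p = 0.0286, the smallest p that 4 against 4 can give, and an adjusted p of 0.0494. No such count was made for other sets of genes, so 11 of 19 has no background. Of all genes, 55.7% in WT and 58.2% in P53-/- ESCs were called with culture. Among the glucose transporters, Slc2a3 held 85.9% ± 1.97 in 2i and 52.7% ± 2.88 in serum (SD, n = 4 libraries each). By genotype the difference was 36.4 percentage points in WT and 30.01 in P53-/- ESCs. Slc2a1 and Slc2a3 were thus close to equal in serum and Slc2a3 took most of the pair in 2i. Of the hexokinases, Hk2 held 60.6% ± 4.72 in 2i and 83.1% ± 0.846 in serum (SD, n = 4 each), with 2i libraries from 54.4% to 65.5% and serum libraries from 82.2% to 84.1%. Pfkm held 17.9% ± 1.12 in 2i and 8.13% ± 0.425 in serum (SD, n = 4 each), and the platelet-type Pfkp held the most of the family in every library without a difference that passed (62.3% and 65.03%, exact permutation p = 0.543). Aldoc stayed a small part of the aldolases, 2.21% ± 0.432 in 2i and 0.533% ± 0.139 in serum (SD, n = 4 each).

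The leading pyruvate dehydrogenase kinase changed with culture. Pdk1 held 39.5% ± 4.43 in 2i and 75.1% ± 5.62 in serum (SD, n = 4 each), while Pdk3 held 54.3% ± 5.21 in 2i and 22.6% ± 5.57 in serum. Pdk3 itself was not called. Pdk2 held 2.11% ± 0.721 in 2i and 0.541% ± 0.172 in serum. Among the PFKFB enzymes, Pfkfb3 held 6.04% ± 1.82 in 2i and 24.98% ± 2.48 in serum, Pfkfb2 54.7% ± 6.09 in 2i and 38.02% ± 2.33 in serum and Pfkfb4 14.7% ± 1.56 in 2i and 7.42% ± 1.81 in serum (SD, n = 4 each). The share of Eno2 among enolases was 3.74% ± 2.62 in 2i and 0.788% ± 0.456 in serum and also passed. WT 2i library 1 stood at 7.62% and the other 2i libraries at 1.96% to 2.92%, and without it the difference between cultures fell from 2.95 to 1.66 percentage points. The share of Ldhb in the lactate dehydrogenase FPKM was 19.5% and 37.99% (WT) and 48.0% and 50.2% (P53-/-) in 2i, and 14.0% and 11.8% (WT) and 20.6% and 13.0% (P53-/-) in serum. The cultures overlapped in 1 library and the difference did not pass (exact permutation p = 0.0571, adjusted p = 0.0776). The 7 other shares that did not pass were those of Pfkl, Pfkp, Eno1, Eno3, Slc16a1, Pdk4 and Pfkfb1, with exact p-values from 0.0571 to 0.743.

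**Figure D3:**
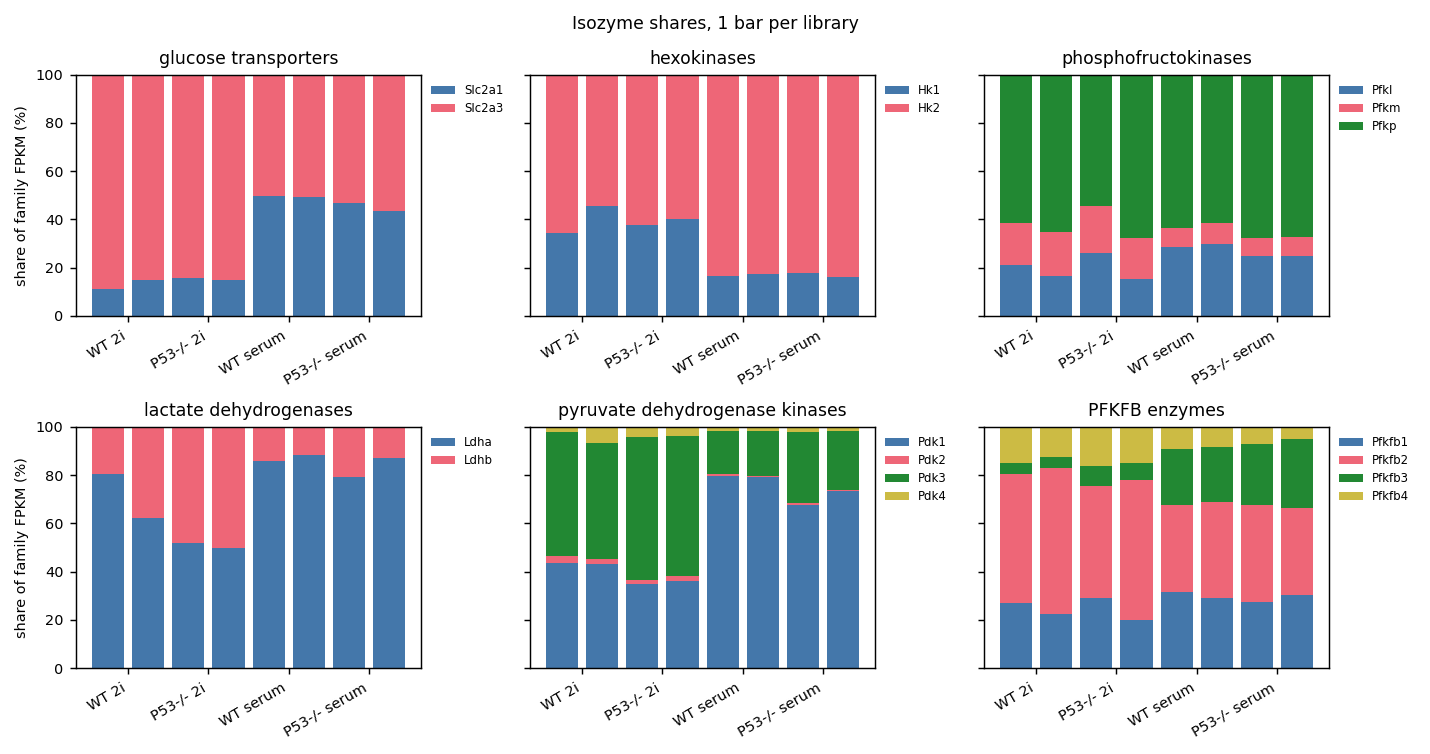
Share of each isozyme in the summed FPKM of its family (vertical axis, %), with 1 bar per library and 2 bars per group. Slc2a3 fills 84.5% to 88.8% of the glucose transporter bars in 2i and 50.4% to 56.6% in serum, and Pdk1 fills 35.05% to 43.4% of the kinase bars in 2i and 67.8% to 79.8% in serum.

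The FPKM of the 18 enzymes from hexokinase to lactate dehydrogenase were summed in each library. In 2i they came to 2916 and 2410.1 FPKM for WT and 3354 and 2808 FPKM for P53-/- ESCs, and in serum to 2653 and 2502 FPKM for WT and 2332 and 2237 FPKM for P53-/- ESCs. The mean was 2872 ± 388 in 2i and 2431 ± 184 in serum (SD, n = 4 each), a difference of 0.23 on the log2 scale that did not pass (exact permutation test, two-sided, p = 0.0857). WT 2i library 2 lay within the range of the serum libraries. Within a genotype the log2 difference was 0.041 in WT and 0.43 in P53-/- ESCs, where 2 libraries against 2 cannot give a p under 0.33.

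The second comparison asked what loss of P53 did to these genes in each culture. In 2i, 3 of the 38 genes were called, all higher in P53-/- ESCs, namely Ldhb, Bnip3 and Eno3, and none was lower. This is 7.89% of the 38 genes, where 10.3% of all genes tested were called (4.36% higher and 5.97% lower). At an unadjusted p under 0.05, 12 of the 38 differed in 2i, 10 higher and 2 lower, beside 3173 of 12572 genes (1727 higher and 1446 lower). The median log2 fold change of the 38 genes was 0.01, beside 0.02 over all genes, with 19 genes above and 19 below 0. Without P53-/- 2i library 1, the one that kept more Trp53, none of the 38 was called, beside 6.13% of all genes, and without P53-/- 2i library 2, 1 was, beside 3.91%. After quantile normalization 6 of the 38 were called, beside 10.2% of all genes, so that the share of the 38 lay above that of all genes and not below it. In serum none of the 38 was called by limma, where 1.02% of all genes were, and 2 had an unadjusted p under 0.05, beside 1422 of 12572 genes. The median was -0.11, beside 0.02 over all genes, with 10 genes above and 28 below 0. The test of the difference between cultures, the interaction, was passed by none of the 38 (0.207% of all genes, 0.103% in each direction), with 6 at an unadjusted p under 0.05, beside 1651 of 12572 genes. The comparisons of genotype share libraries with those of culture and their values are therefore given side by side only.

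Ldhb rose most on P53 loss in 2i. The libraries, 221 and 208 FPKM in P53-/- against 65.9 and 128 in WT 2i ESCs, did not overlap, although the WT libraries also differed widely from each other (log2 fold change 1.22, SE 0.28, adjusted p = 0.0429). In serum the P53-/- libraries were also above WT, at 96.4 and 75.4 against 67.0 and 64.1 FPKM (log2 fold change 0.38, SE 0.28, adjusted p = 0.647). The interaction was 0.85 (adjusted p = 0.415). Without P53-/- 2i library 1 the difference in 2i was 1.18, adjusted p = 0.157, and without P53-/- 2i library 2 it was 1.26, adjusted p = 0.168, so that neither fit called it. The size depended more on the WT libraries, at 0.75, adjusted p = 0.0692 without WT 2i library 1 and 1.70, adjusted p = 0.0101 without WT 2i library 2.

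Bnip3 in 2i rose from 5.24 and 3.95 FPKM in WT to 8.18 and 10.3 in P53-/- ESCs (log2 fold change 0.995, SE 0.25, adjusted p = 0.0594). In serum the groups overlapped, at 7.03 and 7.45 in WT and 4.55 and 7.32 in P53-/- ESCs (log2 fold change -0.32, SE 0.25, adjusted p = 0.676). The call in 2i was lost without P53-/- 2i library 1 (1.16, adjusted p = 0.124), P53-/- 2i library 2 (0.83, adjusted p = 0.259) or WT 2i library 2 (0.80, adjusted p = 0.178). Eno3 in 2i measured 11.5 and 6.86 FPKM in P53-/- against 4.37 and 5.58 in WT ESCs (log2 fold change 0.83, SE 0.24, adjusted p = 0.0824), and in serum 11.4 and 12.1 against 8.31 and 8.83 (log2 fold change 0.45, SE 0.24, adjusted p = 0.523). P53-/- libraries of Eno3 were above WT in both cultures. The call in 2i was lost without P53-/- 2i library 1 (0.46, adjusted p = 0.262), WT 2i library 1 (0.66, adjusted p = 0.247) or WT 2i library 2 (1.01, adjusted p = 0.108), with all genes above 0 tested (adjusted p = 0.116) and without limma's trend (adjusted p = 0.130). A fit of the 4 libraries of 2i ESCs alone, which has fewer libraries to estimate the spread, called none of the 3, with adjusted p-values of 0.198, 0.171 and 0.276 for Ldhb, Bnip3 and Eno3, and called 1.54% of all genes.

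**Figure D4:**
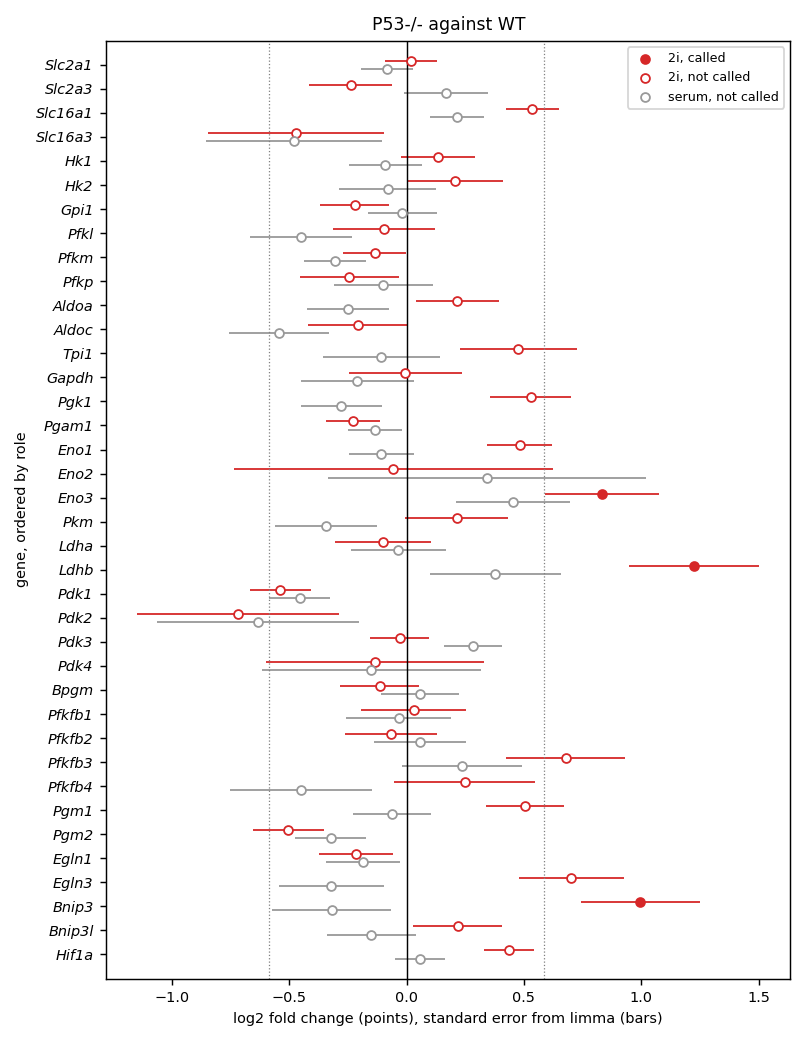
Log2 fold change of P53-/- against WT (horizontal axis) for the 38 genes (vertical axis, ordered by role) in 2i (red) and serum (grey) ESCs, as limma estimates with standard errors from 2 libraries against 2, where filled points were called and dotted lines mark 1.5-fold. Filled points are Ldhb at 1.22, Bnip3 at 0.995 and Eno3 at 0.83, all in 2i, and most serum points lie left of 0.

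A further 5 genes had an adjusted p under 0.1 in 2i with a change under 1.5-fold. The share of all genes that did so was not counted, so this number has no background. Slc16a1, the lactate and pyruvate carrier, was 43.0 and 44.6 FPKM in WT and 65.2 and 61.9 in P53-/- 2i ESCs (log2 fold change 0.54, SE 0.11, adjusted p = 0.0363), and Hif1a was 32.9 and 35.2 in WT and 46.5 and 45.7 in P53-/- ESCs (log2 fold change 0.44, SE 0.11, adjusted p = 0.0533). Eno1 was 56.0 and 66.2 in WT and 85.0 and 85.0 in P53-/- ESCs (log2 fold change 0.48, SE 0.14, adjusted p = 0.0793). These 3 were higher in P53-/- ESCs. Pdk1 was 20.4 and 19.3 in WT and 14.0 and 13.2 in P53-/- ESCs (log2 fold change -0.54, SE 0.13, adjusted p = 0.0499), and Pgm2 was 16.1 and 13.5 in WT and 10.3 and 10.4 in P53-/- ESCs (log2 fold change -0.50, SE 0.15, adjusted p = 0.0891), both lower. In serum Pdk1 was 85.0 and 84.6 in WT and 55.8 and 68.5 in P53-/- ESCs, and the difference did not pass (log2 fold change -0.45, SE 0.13, adjusted p = 0.248).

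Counted by whether the P53-/- and WT libraries overlapped, 12 of the 38 genes lay above WT in both P53-/- libraries in 2i (31.6%, beside 29.0% of all genes) and 7 lay below (18.4%, beside 24.7%). In serum 6 lay above (15.8%, beside 25.7%) and 16 below (42.1%, beside 21.8%). In 3 genes, Egln3, Pfkfb4 and Pgk1, the P53-/- libraries lay on opposite sides of WT in the 2 cultures (7.89%, beside 7.6% of all genes). The 16 included Aldoa, Aldoc, Pfkl, Pfkm, Gapdh, Pgk1, Pgam1 and Pdk1, and their log2 fold changes in serum reached from -0.63 for Pdk2 to -0.08 for Slc2a1. Slc2a3, the most expressed transporter, differed by -0.24 in 2i and 0.17 in serum, and Ldha by -0.10 and -0.04, and no test of either gene passed (adjusted p from 0.454 to 0.973). In none of the 8 genes from hexokinase to aldolase was P53 loss called in either culture, with log2 fold changes from -0.24 to 0.22 (2i) and from -0.54 to -0.02 (serum).

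**Figure D5:**
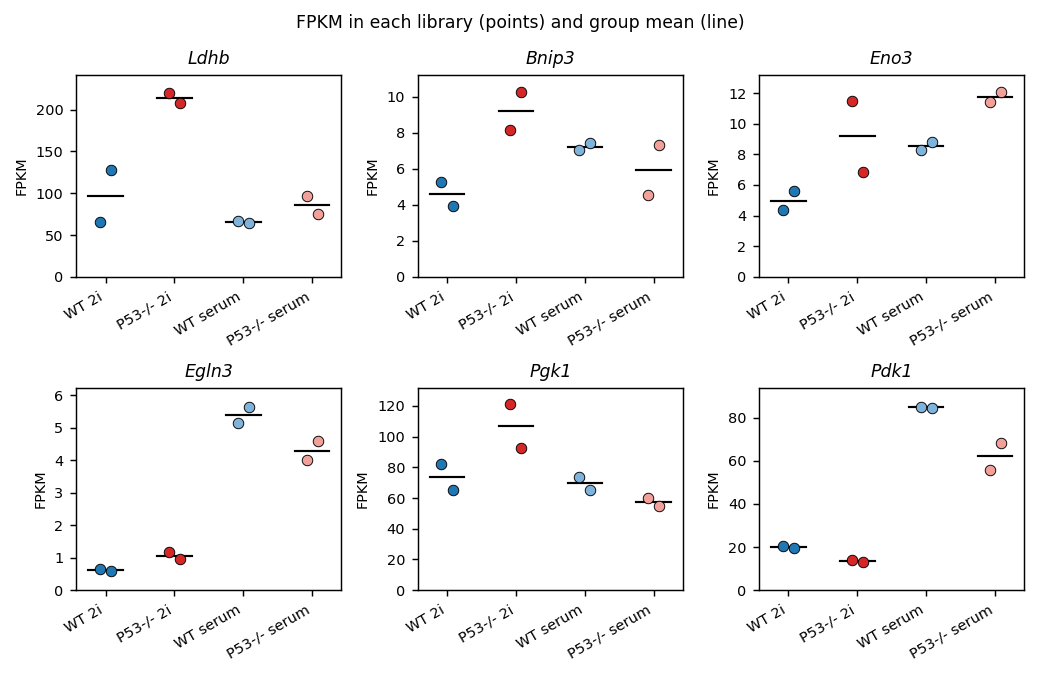
FPKM (vertical axis, from 0) of Ldhb, Bnip3, Eno3, Egln3, Pgk1 and Pdk1 in each of the 2 libraries (points) of the 4 groups (horizontal axis), with the group mean as a line. P53-/- 2i ESCs have the highest Ldhb, at 221 and 208 FPKM, and Pdk1 stands at 85.0 and 84.6 FPKM in WT serum against 20.4 and 19.3 in WT 2i ESCs.

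Beyond the 38 genes, 100 others of the same pathways were listed, of which 78 passed the expression filter. With culture, 44 of the 78 were called in WT ESCs (31 higher and 13 lower in 2i) and 52 in P53-/- ESCs (38 higher and 14 lower), 56.4% and 66.7%, beside 55.7% and 58.2% of all genes. By direction, all genes split into 27.2% higher and 28.6% lower for WT, and 28.0% higher and 30.1% lower for P53-/- ESCs, and the single lists are short. Among 32 other genes of glycolysis and pyruvate handling, 15 were higher and 3 lower in WT 2i. They included the testis-type lactate dehydrogenase Ldhc (11.4 and 8.75 FPKM in WT 2i, 0.375 and 0.119 in WT serum, log2 fold change 4.97) and the gluconeogenic Fbp2 (34.7 and 14.9 FPKM in WT 2i, 0.634 and 1.21 in WT serum, log2 fold change 4.54). In the pentose phosphate pathway 4 of 8 were higher and 2 lower, with Taldo1 (1.53) and Tkt (1.49) among the higher, and Pgd (-0.996) and Rpe (-1.08) lower. Pgls (mean 74.8 FPKM in WT 2i, 28.2 in WT serum) and H6pd (mean 7.06 and 2.90 FPKM) also lay higher in WT 2i. Of 10 glycogen genes 3 were higher and none lower, led by the phosphorylase Pygb (2.24). All 5 HIF regulators tested were called in both genotypes: Vhl (1.42 in WT) and Egln2 (1.10) were higher in 2i, and Epas1 (-2.55), which encodes HIF-2 alpha, Hif1an (-1.60) and Arnt (-1.22) were lower. Of 23 other HIF-linked genes 7 were higher and 5 lower in WT 2i, with Ddit4 (1.43) and Loxl2 (-3.29) as examples of each.

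On P53 loss, 12 of these 78 genes were called in 2i (5 higher and 7 lower, 15.4%) and 2 in serum (both lower, 2.56%), beside 10.3% and 1.02% of all genes. Ddit4, an inhibitor of mTORC1 known as a P53 and hypoxia target, was 60.3 and 53.8 FPKM in the WT and 24.8 and 22.4 in the P53-/- libraries of 2i ESCs, with 20.4 and 21.7 in the WT and 4.37 and 4.01 in the P53-/- libraries of serum ESCs, and P53-/- ESCs were lower in both cultures (-1.27, adjusted p = 0.00218 in 2i and -2.30, adjusted p = 2.4e-04 in serum). Plod2, a collagen-modifying enzyme, was 17.1 and 15.2 FPKM in 2i against 19.2 and 19.4 in serum for WT ESCs, and 4.79 and 5.44 in 2i against 11.3 and 12.1 in serum for P53-/- ESCs, and was also lower in both (-1.64 and -0.72, adjusted p = 7.7e-04 and 0.0872). In 2i the muscle phosphoglycerate mutase Pgam2 (-2.24), the HIF competitor Cited2 (-1.99), Epas1 (-0.94), Pcx (-0.75) and P4ha2 (-0.73) were lower as well. Nampt (1.002), Stc2 (0.78), Dld (0.73), Rpe (0.72) and Ugp2 (0.62) were higher. Tigar, named for its induction by P53, was 49.0 and 36.2 FPKM in WT and 41.2 and 34.8 in P53-/- 2i ESCs and was not called (log2 fold change -0.15, SE 0.16, adjusted p = 0.609).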

How the data were processed

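WT and P53-/- ESCs sorted for G1 phase were analysed from 1 deposited table of FPKM values, 1 column per library. The FPKM values were made by the authors. The submitters' processing notes name STAR, Cufflinks and DESeq2 and build mm9, without versions or roles. How reads of paralogs were counted is not given in the sources used here. Columns name genotype and culture, not replicate or clone. P21-/- ESCs and another pair of WT 2i libraries (4 samples) were not analysed here.

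log2(FPKM + 0.1) of 12572 genes (mean FPKM 0.5 or above) was tested with limma 3.58.1 (R 4.3.3, 1 fit of 4 groups, eBayes with trend, Benjamini-Hochberg adjustment over all genes tested), after a test on simulated data. This scale understates changes of low genes. Thresholds for genes followed the study's methods, whereas shares and the enzyme sum were judged at 0.05 (adjusted p for shares). Shares and sums used exact permutation tests (scipy 1.17.1). Depth was estimated from the steps between low values and carries a factor common to all libraries. Symbols were matched to GENCODE M21 (98.2%). The 38 genes and all gene lists were chosen with earlier results of these data known. Values in every library are given for genes called in any comparison, and for genes past 1.5-fold at an unadjusted p under 0.05 on P53 loss. Other pathway genes are given by symbol where called. Alternatives covered pseudocount, filter, scaling, fit, threshold, chromosome centring, small RNA genes and each library.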

Additional observations from a re-analysis of the deposited data

Results flagged for a closer look

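In 3 of the 38 genes, both P53-/- libraries lay on 1 side of both WT libraries in 2i and on the other side in serum (7.89%, beside 7.60% of all genes tested). Egln3 was 0.656 and 0.573 FPKM (WT) and 1.16 and 0.964 FPKM (P53-/-) in 2i, against 5.14 and 5.62 (WT) and 3.998 and 4.59 (P53-/-) in serum, above WT in 2i and below WT in serum, and the interaction, 1.02 on the log2 scale, did not pass (SE 0.32, adjusted p = 0.253 in limma). Pgk1 was 81.9 and 65.5 FPKM in the WT and 121 and 92.4 in the P53-/- libraries of 2i ESCs, with 73.8 and 65.4 in the WT and 60.2 and 54.5 in the P53-/- libraries of serum ESCs, with an interaction of 0.81 (SE 0.24, adjusted p = 0.242). Pfkfb4 was 1.73 and 1.58 FPKM in 2i against 0.944 and 0.830 in serum for WT ESCs, and 2.07 and 1.90 in 2i against 0.774 and 0.496 in serum for P53-/- ESCs, with an interaction of 0.70 (SE 0.43, adjusted p = 0.528). The test of the difference itself was passed by none of the 3, and their share was near that of all genes.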

How the results depend on the processing

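Of 46 calls made among the 38 genes, 30 held under all 14 alternatives and 16 were lost under at least 1, and none was reversed. By comparison, 14 of 21 calls of culture in WT ESCs and 16 of 22 in P53-/- ESCs held, and 0 of the 3 calls of P53 loss in 2i. The number of genes called on P53 loss in 2i was 3, 6 after quantile normalization, 1 at an adjusted p under 0.05 and 0 in a fit of the compared groups only. With 1 library left out it ran from 0 (without P53-/- 2i library 1) to 4, and was 1 without P53-/- 2i library 2. It was 0 under every alternative in serum and for the interaction. With all libraries kept, calls of culture in WT ESCs ran from 17 at an adjusted p under 0.05 to 23 after quantile normalization. Of all genes, 52.6% and 56.5% were called in these 2 fits. In P53-/- ESCs they ran from 19 at an adjusted p under 0.05 to 23 without small RNA genes, beside 55.3% and 59.2% of all genes. Some fits with 1 library left out called fewer of the 38. The difference in the Slc2a3 share was 36.4 percentage points in WT libraries and 30.01 in P53-/- libraries, beside 33.2 with both. That of the enzyme sum was 0.041 in WT and 0.43 in P53-/- libraries on the log2 scale, beside 0.23. The cause of these differences was not tested. All genes called on P53 loss in 2i numbered 1299, 1288 (10.2%) after quantile normalization, 193 in the fit of the compared groups only and 771 at an adjusted p under 0.05, and were 771 (6.13%) without P53-/- 2i library 1 and 491 (3.91%) without P53-/- 2i library 2. A pseudocount of 1 in place of 0.1 moved 5 called culture differences by over 1.5 times, those of Egln3, Pfkfb3 and Eno2 in WT and of Aldoc and Pfkfb4 in P53-/- ESCs, all toward 0 and all still called. Where 1 library was left out, the lone library of its group was assumed to vary like the others. No paired analysis was possible because the columns carry no replicate number. With 2 libraries a group and 5200000 to 13300000 fragments, changes near 1.5-fold and genes under a few FPKM (Pdk2, Eno2, Pdk4) are measured with little precision.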
